A study of Spongilla lacustris with 18 samples.

Results

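Vehicle-treated sponges were compared between the 4 h and the 1 h samples. The comparison takes the 3 libraries labelled DMSO 4 h and the 3 labelled DMSO 1 h, chosen by their labels alone, which are 6 of the 18 libraries of the study. The animals were juveniles of the freshwater sponge Spongilla lacustris, labelled WT, raised over 9 days at 18 °C in M-medium, and their polyA RNA was sequenced from whole bodies. Both groups carried 0.03% DMSO, the solvent in which the study gave tryptamine, a monoamine, at 37.5 µM to its other sponges. Sampling in DMSO fell at 1 h, at 4 h, and at 24 h of recovery following a 4 h exposure and washout, with 3 libraries at each time and the same 3 times in tryptamine. No sponges without DMSO were analysed here, so time in the vehicle, time since handling and the time of day cannot be told apart. The labels do not say that replicates came from separate cultures or clones, so the p-values measure only the spread between these samples, which may in part be technical.

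Sponges have no neurons and no muscles. They pump water through a canal system with flagellated choanocytes, line it with contractile pinacocytes and renew themselves from mobile archaeocytes. They live among bacteria and viruses and carry homologues of many animal defence genes, among them helicases that sense viral RNA, ubiquitin ligases that mark invading material, and caspases. In vertebrates a large share of such genes is switched on together by interferon, a secreted signal for which sponges have no known counterpart. Gene names here come from the deposited table and state similarity to named genes of other animals, mostly vertebrates, not identity. Genes of one name are assembled transcripts and may be fragments of one gene, so counts of them need not be counts of separate genes.

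The 6 libraries held 11379345 to 23769406 counted read pairs, 5.58% to 6.05% of the counts fell on the 10 leading genes of a library, and 30822 to 31888 genes had at least 1 count. A level of 3 counts was 0.126 to 0.264 CPM (counts scaled to a fixed library total, with TMM factors of 0.88 to 1.02), a floor for counting error only. Lists of named genes taken for choanocyte flagella, archaeocytes, contractile cells and sclerocytes had summed levels that overlapped between the times. Such a sum is weighted towards its most abundant genes and does not measure the number of cells. Flagellar axoneme genes summed to 7820 to 8340 CPM at 1 h and 7750 to 8490 CPM at 4 h, and archaeocyte and multipotency genes to 6020 to 6520 and 5800 to 6320 CPM. Actomyosin genes summed to 42900 to 46500 CPM at 1 h and 43200 to 45200 CPM at 4 h, and spicule genes, of sclerocytes, to 647 to 665 and 642 to 673 CPM. Basal body and intraflagellar transport genes, also of flagellated cells, did not overlap, at 1790 to 1830 CPM at 1 h and 1600 to 1710 CPM at 4 h. In whole bodies fewer cells of a type and less RNA per cell cannot be told apart.

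Of 24125 genes tested, 678 were higher at 4 h (2.81%) and 253 lower (1.05%), together 3.86%, by edgeR's quasi-likelihood test with Benjamini-Hochberg adjustment and a threshold of 0.05. The rises were larger than the falls. The median log2 difference was 1.75 among genes called higher, -0.77 among those called lower and 0.01 over all genes tested. Of the genes called higher, 560 rose by more than 1 on the log2 scale, 281 by more than 2 and 119 by more than 3, while 79 of those called lower fell by more than 1 and 3 by more than 3. The 3 libraries of each time did not overlap in 926 of the 931 called genes, as against 20.4% of all genes tested. The calls were made on these same libraries, so the lack of overlap adds no support to them. Names were available for 215 of the genes called higher and 144 of those called lower, and the other 463 and 109 carry no usable name.

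The 4 h libraries were not alike in the size of the rise. Replicate 1 was the lowest of the 3 in 613 of the 678 genes called higher, and replicate 2 the lowest in 176 of the 253 genes called lower. Without 4 h replicate 1 the test called 861 genes higher and 329 lower. Without replicate 2 it called 410 and 61, without replicate 3 it called 384 and 126. Leaving out 1 h replicate 1 gave 415 and 176, replicate 2 gave 498 and 109, and replicate 3 gave 461 and 88. Same-numbered libraries deviated together from their group means, and with the replicate number as a block the genes called lower rose in number from 253 to 451. Genes called higher were short, with a median length of 470 bases against 619 over all genes tested, and genes called lower were long, with a median of 1404. With a length trend removed from each library, 666 and 243 genes were called.

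Of the 14 largest rises among named genes, 7 carry the name RNF213, a ubiquitin ligase, and the largest was in TRIM2. TRIM2 c87469-g1, named for a ubiquitin ligase of the tripartite-motif family, measured 9.84, 13.9 and 9.55 CPM in the 1 h libraries and 181, 658 and 382 CPM in the 4 h libraries. All 4 h libraries stood above all 1 h libraries, replicate 1 lowest among them, and the log2 difference was 5.19 (SE 0.54, edgeR adjusted p = 8.46e-05). It was the only 1 of 12 tested genes of that name to be called, and the other 11 lay at -0.75 to 0.25. This and the other families of one name below were picked after values were seen. Over all genes tested 2.81% were called higher and 1.05% lower, so a family without falls is near that share. Groups that do not overlap were a condition for naming genes by rule, so for those genes this trait adds no support. A gene named RSAD2, c4918-g1, whose vertebrate relative viperin makes a nucleotide that stops viral RNA synthesis, measured 0.615, 0.717 and 0.616 CPM at 1 h and 6.2, 11.5 and 11.3 CPM at 4 h. The groups were far apart, with a log2 difference of 3.86 (SE 0.35, adjusted p = 4.16e-06).

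In vertebrates the very large ubiquitin ligase RNF213 acts against viruses and bacteria, and its name is given to 33 genes of the table, of which 21 were tested. Of these, 7 rose and 0 fell, where 2.81% of all genes tested rose and 1.05% fell. The 7 had log2 differences of 3.65 to 4.91, and 19 of the 21 had a positive difference. RNF213 c107702-g1 measured 6.15, 5.28 and 5.93 CPM at 1 h and 48.3, 132 and 140 CPM at 4 h, a log2 difference of 4.21 (SE 0.38, adjusted p = 1.1e-05). RNF213 c94017-g2 measured 0.615, 0.358 and 0.693 CPM at 1 h and 5.84, 20.5 and 19.1 CPM at 4 h, a log2 difference of 4.81 (SE 0.43, adjusted p = 4.16e-06). RNF213 c105075-g1 measured 0.0684, 0 and 0.462 CPM at 1 h, at or near the floor of 3 counts, and 2.43, 5.75 and 5.79 CPM at 4 h. In each of these the 1 h libraries lay below every 4 h library, and 4 h replicate 1 was the lowest of its group. The other 4 that rose were c94017-g1, c96402-g2, c105143-g1 and c40293-g2. Reads that map to several copies were left out of the counts, which makes the level of any single RNF213 gene uncertain. Among the 7 that rose, c107702-g1 has a length of 19703 bases and c105075-g1 of 349 bases, and c94017-g1 and c94017-g2 share a number. Whether some of the 7 are fragments of one gene was not tested.

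**Figure D1:**
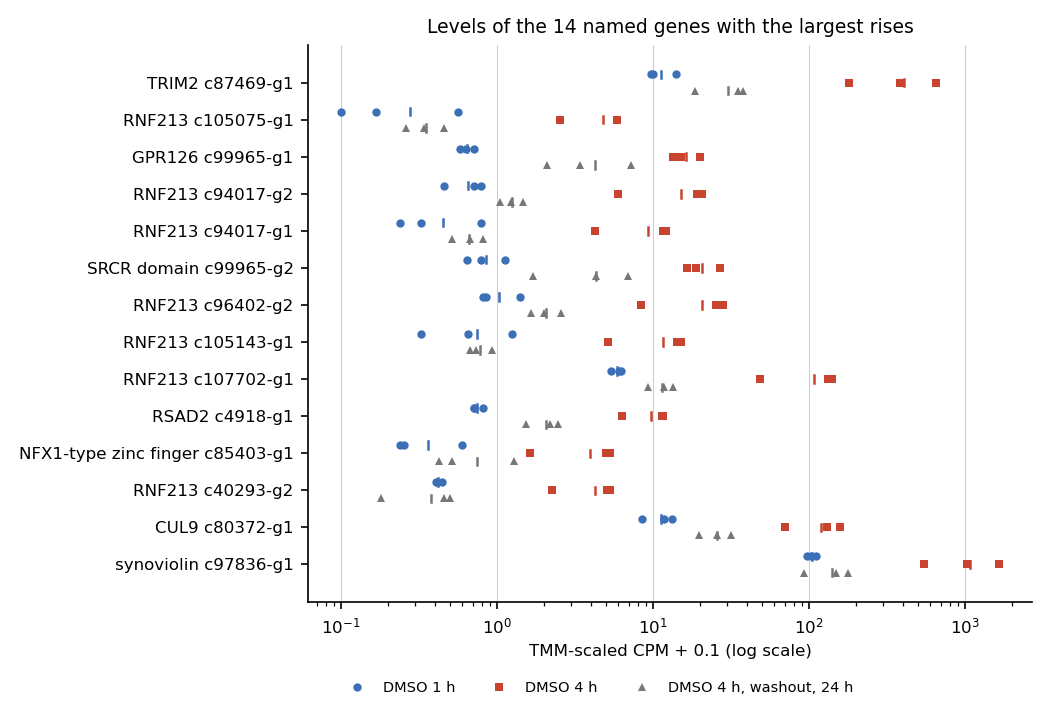
TMM-scaled CPM + 0.1 on a log axis in the 3 libraries each of DMSO 1 h, DMSO 4 h and DMSO with washout and 24 h of recovery, for the 14 named genes with the largest rises (points are libraries, ticks are means). The 4 h libraries lie to the right of the 1 h libraries in each of the 14, which was a condition of choosing them. Of the 14, 7 are named RNF213.

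Genes for sensors of viral RNA rose as well. RIG-I-like receptors are helicases that bind double-stranded RNA in the cytoplasm of vertebrate cells. Of the 6 tested genes so named 4 rose, where 2.81% of all genes tested rose. IFIH1 c93646-g1, named for the sensor MDA5, measured 11.3, 8.28 and 13.4 CPM at 1 h and 26.8, 39.6 and 39.2 CPM at 4 h, a log2 difference of 1.69 (SE 0.21, adjusted p = 5.1e-05). IFIH1 c101586-g1 was tight at 1 h, at 19.8, 19.6 and 19.3 CPM, and measured 34, 52 and 52.1 CPM at 4 h. DHX58 c110325-g1, named for the related receptor LGP2, rose by 2.37 (SE 0.28, adjusted p = 4.68e-05), and IFIH1 c95910-g1 by 2.68. The other 2 tested genes of the family, at -0.45 and -0.46, were not called. A gene named for an NFX1-type zinc finger protein, c85403-g1, whose mammalian relative ZNFX1 is a helicase that binds viral RNA, rose by 3.71 (SE 0.74, adjusted p = 0.00653), 1 of 12 tested genes of the family to be called.

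The whole list of RNA sensing and interferon-type effectors held 91 tested genes, of which 12 rose and 2 fell (15.4% called, against 3.86% of all genes tested). Its median log2 difference was 0.27 against 0.01 over all genes, and 67 of the 91 were positive. RNF213, RSAD2, IFIH1 and DHX58 account for all 12 rises, and the RNF213 genes among them may be fragments of fewer genes. The 2 that fell were IRF8,IRF4 c78626-g1, named for interferon regulatory factors, and JAK1,JAK2,TYK2 c101997-g2, named for kinases of cytokine receptors, the first by 1.73 on the log2 scale (SE 0.26, adjusted p = 0.000505) and the second by 0.51 (SE 0.14, adjusted p = 0.0427). In each fit without 1 of the 6 libraries, 12 or 13 members were called higher, and the 2 falls were 1 without any 1 library but 4 h replicate 1, where the JAK1,JAK2,TYK2 c101997-g2 call was lost (adjusted p 0.0504 to 0.249).

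Among ubiquitin ligases 21 of 252 tested members rose and 1 fell (8.73% called, against 3.86% of all genes tested). The median was -0.05, however, and 144 of the 252 had a negative difference. Of the 21, 7 are the RNF213 genes that the list of RNA sensing also holds. CUL9 c80372-g1, named for a cullin, the scaffold of a class of ubiquitin ligases, measured 11.6, 13.2 and 8.47 CPM at 1 h and 69.7, 159 and 131 CPM at 4 h, a log2 difference of 3.42 (SE 0.30, adjusted p = 6.01e-06). A gene named for synoviolin, c97836-g1, carries no symbol and so is not among the 21. Synoviolin is the ubiquitin ligase that removes misfolded proteins from the endoplasmic reticulum. The gene measured 103, 111 and 96.5 CPM at 1 h and 551, 1660 and 1040 CPM at 4 h. Both CUL9 c80372-g1 and c97836-g1 had every 4 h library above every 1 h library, and c97836-g1 rose by 3.38 (SE 0.33, adjusted p = 1.58e-05). The other tested gene of that name, SYVN1 c102386-g2, differed by -0.16 (adjusted p = 0.608). The member that fell was TRIM28,TRIM33 c78055-g1, named for repressors of transcription, at -1.17 (SE 0.29, adjusted p = 0.023), a call lost without any 1 of the 6 libraries (adjusted p 0.0532 to 0.0857). The count of rising members went from 21 to 13 without 4 h replicate 2 or 3, to 14 without 1 h replicate 1 and to 26 without 4 h replicate 1. With the replicate block 25 rose and 7 fell.

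Deubiquitinating enzymes, which take ubiquitin off proteins, rose in 5 of the 41 tested genes named for ubiquitin-specific peptidases, by 1.31 to 2.42, and none fell. Over all genes tested 2.81% rose and 1.05% fell. USP50 c86191-g2 measured 0.684, 0.582 and 0.924 CPM at 1 h and 1.98, 4.34 and 5.15 CPM at 4 h, and USP8 c84662-g1, USP15 c89516-g1 and USP4 c41298-g1 rose by 2.32, 2.12 and 1.70. Poly(ADP-ribose) polymerases, which attach ADP-ribose chains to proteins in stress and infection, had 3 of 33 tested genes with the catalytic domain called, by 2.88 to 3.24. The gene c98394-g1 of this family measured 29.3, 47.4 and 25.2 CPM at 1 h and 115, 409 and 230 CPM at 4 h. TNKS c95176-g1, named for tankyrase of the same enzyme class, rose by 3.25 (SE 0.47, adjusted p = 0.000896). Proteasome subunits, which degrade what is marked with ubiquitin, had none of 42 tested members called.

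The list of Toll, NF-kappa-B and cell death genes had 8 of 99 tested members called higher and 1 lower (9.09%). Its median was -0.02. Over all genes tested 2.81% were higher and 1.05% lower, together 3.86%. TRAF proteins are adaptors below receptors of the tumour necrosis factor family and are counted among the ubiquitin ligases too, and 5 of 29 tested genes so named rose, by 1.12 to 3.14. TRAF2 c104149-g1 measured 474, 705 and 346 CPM at 1 h and 1170, 2650 and 2250 CPM at 4 h, a log2 difference of 1.99 (SE 0.31, adjusted p = 0.000952). Its 1 h libraries spread widely and still lay below every 4 h library. The call of TRAF3 c104751-g2, the largest of the 5, was lost without 1 h replicate 1 or 3 or 4 h replicate 2 or 3 (adjusted p 0.0661 to 0.0742). TRAF2 c102973-g1 rose by 1.36 (SE 0.20, adjusted p = 0.000261).

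Caspases, the proteases that carry out cell death and mature inflammatory signals, rose in 3 of 10 tested genes. Over all genes tested 2.81% rose. CASP2,CASP1 c100053-g2 measured 24.1, 23.3 and 23.2 CPM at 1 h and 42.4, 79 and 80.5 CPM at 4 h, a log2 difference of 1.52 (SE 0.18, adjusted p = 4.05e-05). CASP10,CASP8 c104065-g2 rose by 1.73 and CED-3 c103415-g1, named for the caspase of the worm Caenorhabditis elegans, by 1.47. SARM1 c90126-g1, named for an adaptor of Toll receptors that consumes NAD, fell by 1.03 on the log2 scale (adjusted p = 0.0171), a call lost without 1 h replicate 3, 4 h replicate 2 or 4 h replicate 3 (0.0825 to 0.0986).

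**Figure D2:**
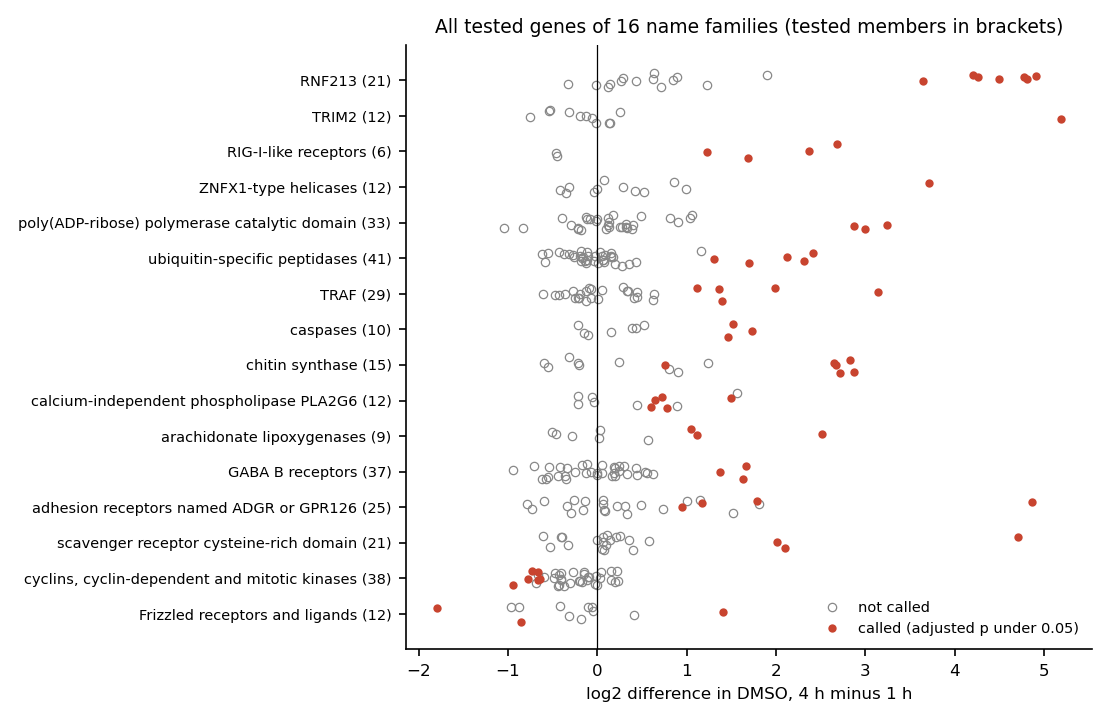
Log2 differences, DMSO 4 h minus 1 h, of each tested gene of 16 name families (filled points have an edgeR adjusted p under 0.05). In RNF213 the 7 called genes stand at 3.65 to 4.91 apart from the other tested genes of the name, and in TRIM2 a single gene of 12 stands at 5.19.

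Some genes of tryptophan use stood among the rises, and are grouped here after their values were seen. Indoleamine 2,3-dioxygenase opens the ring of tryptophan at the start of the kynurenine pathway, is induced by interferon in mammals, and is the name of 3 tested genes, of which 2 rose. IDO1,IDO2 c80379-g2 measured 22.3, 27.7 and 6.08 CPM at 1 h and 107, 216 and 207 CPM at 4 h, a log2 difference of 3.23 (SE 0.60, adjusted p = 0.00708). IDO1,IDO2 c90297-g1 measured 32.7, 36.8 and 28.3 CPM at 1 h and 85.2, 253 and 176 CPM at 4 h, a difference of 2.39 (SE 0.34, adjusted p = 0.000505). Replicate 3 at 1 h, low in the first gene, was closer to the other 1 h libraries in the second. They were the called members of 36 tested genes of monoamine synthesis, breakdown and transport. That is 5.56%, near the 3.86% of all genes tested, and the list's median was 0.02.

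WARS c103838-g4, named for the enzyme that loads tryptophan on its tRNA, measured 5.06, 5.24 and 5.47 CPM at 1 h and 22.9, 57.5 and 40.9 CPM at 4 h, a log2 difference of 2.94 (SE 0.37, adjusted p = 0.00014). The 1 h libraries were nearly equal and the 4 h libraries all above them. The other tested gene of that name differed by -0.03. Of 39 tested aminoacyl-tRNA synthetases 2 were called (5.13%, near the 3.86% of all genes tested), with a list median of 0.01. They were WARS and TARS c103470-g2, the enzyme for threonine, the latter at 1.17 (SE 0.26, adjusted p = 0.0136). The TARS call was lost without 1 h replicate 1 (adjusted p = 0.0806), 1 h replicate 3 (0.05), 4 h replicate 2 (0.0875) or 4 h replicate 3 (0.0888). A gene named amine oxidase, c101209-g1, of the class that breaks down monoamines, measured 8.14, 9.45 and 6.47 CPM at 1 h and 25.9, 29.2 and 21.7 CPM at 4 h, and was 1 of 10 tested genes of such a name to be called, at 1.66 (SE 0.23, adjusted p = 0.000182).

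Chitin synthases build the polymer of the outer wall of gemmules and of parts of the skeleton in freshwater sponges. Of 15 tested genes of that name 6 rose and none fell, where 2.81% of all genes tested rose and 1.05% fell. The rise was 2.65 to 2.88 on the log2 scale in 5 of the 6. The gene c102134-g4 measured 17.3, 12.4 and 12 CPM at 1 h and 62.8, 103 and 96.3 CPM at 4 h, and c104626-g6 measured 6.29, 3.94 and 4.85 CPM at 1 h and 24.3, 35.7 and 35.7 CPM at 4 h. The groups lay well apart in both genes, and c104626-g6 had the smallest p of the family (log2 difference 2.67, SE 0.28, adjusted p = 1.48e-05). The sixth, c104626-g2, measured 310, 370 and 325 CPM at 1 h and 538, 564 and 599 CPM at 4 h, a difference of 0.76 (SE 0.20, adjusted p = 0.0311). That call was lost without any 1 of 5 libraries (adjusted p 0.0566 to 0.13), 4 h replicate 1 being the exception.

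The list of lipid and sterol metabolism had 6 of 74 tested members called higher and 1 lower (9.46%). Its median was -0.03 and 47 of the 74 were negative. Over all genes tested 2.81% were higher and 1.05% lower, together 3.86%. Of the 6 rises, 5 are named PLA2G6, a phospholipase that works without calcium and releases fatty acids from membranes. PLA2G6 c104830-g2 measured 99.4, 101 and 94.1 CPM at 1 h and 170, 330 and 330 CPM at 4 h, a log2 difference of 1.5 (SE 0.21, adjusted p = 0.000161). The other 4, c78372-g1, c102557-g1, c97613-g1 and c97613-g2, rose by 0.60 to 0.78, calls each lost without 4 or 5 of the 6 libraries taken singly (adjusted p 0.0567 to 0.197), and of 12 tested genes of that name none fell. The list's count of rises was 2 without 1 h replicate 1, without 1 h replicate 3, without 4 h replicate 2 and without 4 h replicate 3. Arachidonate lipoxygenases, which oxidise the released fatty acids, rose in 3 of 9 tested genes, by 1.05 to 2.52. The calls of c100604-g1 and c100244-g1 were lost without 6 and 4 of the libraries (adjusted p 0.0572 to 0.186), and that of c100244-g2 held without each. ABCA7,ABCA12,ABCA2,ABCA4... c101316-g1, named for lipid transporters, measured 221, 216 and 272 CPM at 1 h and 454, 550 and 725 CPM at 4 h, a difference of 1.29 (SE 0.16, adjusted p = 6.07e-05).

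Receptors of the cell surface changed in both directions. Of 62 tested G protein-coupled receptors with a symbol 5 rose and 1 fell (9.68%, against 3.86% of all genes tested). Their median was 0.08. The 5 rises were 2 without 1 h replicate 1 and 3 without 4 h replicate 2 or 3. GPR126 c99965-g1, named for an adhesion receptor that binds extracellular matrix, measured 0.479, 0.537 and 0.616 CPM at 1 h and 15.1, 19.9 and 13.4 CPM at 4 h. An entry with a scavenger receptor cysteine-rich domain, the binding module of many receptors for microbes, shares the number c99965 as c99965-g2. It measured 0.684, 1.03 and 0.539 CPM at 1 h and 16.4, 26.7 and 18.8 CPM at 4 h. Both stood far apart between the times, GPR126 c99965-g1 by 4.87 on the log2 scale (SE 1.01, adjusted p = 0.014) and c99965-g2 by 4.71 (SE 1.02, adjusted p = 0.0192). Whether both are parts of a single gene was not tested. The GPR126 c99965-g1 call was lost without any of the 1 h libraries (adjusted p 0.0654 to 0.0764) or without 4 h replicate 2 (0.0513). The call of c99965-g2 was lost without any 1 library but 4 h replicate 1 (adjusted p 0.0509 to 0.0929).

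LGR6,LGR4 c98252-g1, named for receptors that strengthen Wnt signalling in vertebrates, measured 10.2, 16.6 and 14.4 CPM at 1 h and 35.1, 45.8 and 74 CPM at 4 h, a log2 difference of 1.91 (SE 0.26, adjusted p = 0.000169). GPR157 c101957-g1 fell, from 18.2, 24.3 and 16.3 CPM to 11.1, 7.45 and 9.46 CPM, by 1.07 (SE 0.19, adjusted p = 0.00142). Neither gene's groups overlapped. Genes named for GABA B receptors, which answer to an inhibitory amino acid transmitter in animals with neurons, rose in 3 of 37 tested cases, by 1.37 to 1.67. The gene c104641-g1 measured 32.4, 37 and 33.1 CPM at 1 h and 64.4, 122 and 131 CPM at 4 h. None of the 37 fell, where 2.81% of all genes tested rose and 1.05% fell. Of 21 tested genes named for the cysteine-rich scavenger domain 3 were called, while the list of scavenger receptor symbols had 0 of 25 called. The 3 were 1 without 1 h replicate 2 or 4 h replicate 3, where the call of c81450-g1 was lost (adjusted p 0.0582 to 0.085) besides that of c99965-g2.

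Nitric oxide and cyclic GMP, which relax contractile tissue in many animals, had 2 of 14 tested genes called, both higher. That is 14.3%, where 2.81% of all genes tested were higher. GUCY1B3 c102529-g2, named for a subunit of the soluble guanylate cyclase that senses nitric oxide, measured 198, 240 and 244 CPM at 1 h and 330, 440 and 522 CPM at 4 h, a log2 difference of 0.92 (SE 0.18, adjusted p = 0.0042). NOS3,NOS2,NOS1 c103457-g1, nitric oxide synthase, measured 398, 473 and 473 CPM at 1 h and 585, 613 and 780 CPM at 4 h, a difference of 0.56 (SE 0.14, adjusted p = 0.0216). The synthase call was lost without any 1 h library or without 4 h replicate 3 (adjusted p 0.0532 to 0.153), which left 1 call in the list. Within the cyclic AMP list 1 of 45 tested genes rose and 4 fell (11.1%, against 3.86% of all genes tested). PDE4B,PDE4D,PDE4C,PDE4A c102890-g1, which breaks down cyclic AMP, rose by 0.68 (adjusted p = 0.0078, and 0.0542 without 4 h replicate 3), and 2 genes named for the calcium-activated phosphodiesterase PDE1 fell. PDE1B,PDE1C,PDE1A c101375-g1 measured 63.5, 72.6 and 82.4 CPM at 1 h and 45.7, 25.9 and 42.3 CPM at 4 h, a difference of -0.94 (SE 0.18, adjusted p = 0.00376). PDE1C,PDE1A c103195-g1 differed by -0.59, a call lost without any 1 library but 4 h replicate 1 (adjusted p 0.0788 to 0.202). The list's 4 falls were 1 without 4 h replicate 2, 5 without 4 h replicate 1 and 2 without each of the other 4 libraries.

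RSPH14 c92867-g1, named for a radial spoke protein of flagella, measured 5.61, 7.7 and 5.77 CPM at 1 h and 15.8, 34.3 and 42.7 CPM at 4 h, a log2 difference of 2.28 (SE 0.30, adjusted p = 0.00012). It was 1 of 3 rises among 137 tested axoneme genes, of which 1 fell. That is 2.92% called, near the 3.86% of all genes tested, and the median was 0.01. The 3 rises were 1 without 1 h replicate 3 or 4 h replicate 2, and the 1 fall was 0 without 4 h replicate 2 and 2 without 1 h replicate 2 or 4 h replicate 1. LLGL1,LLGL2 c104143-g2, named for a protein of cell polarity, rose by 1.2 (SE 0.19, adjusted p = 0.000647). MOV10L1 c102196-g1, named for a helicase of the piRNA pathway in mammalian germ cells, rose by 2.32 (SE 0.28, adjusted p = 8.79e-05), the only call in the archaeocyte and multipotency list, which had 2 without 4 h replicate 1. DUOX1 c100337-g1 and c101739-g5, named for enzymes that release hydrogen peroxide, were higher by 0.58 and 0.67 (adjusted p = 0.0226 and 0.0158), calls that were each lost without 1 h replicate 1, 4 h replicate 2 or 4 h replicate 3 (adjusted p up to 0.132 and 0.105), and that of c100337-g1 also without 1 h replicate 3 (0.0968).

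Among named genes the largest fall was in c94233-g1, named as a ligand of the frizzled receptors, the receptors of Wnt signals, at 120, 275 and 190 CPM at 1 h and 53.2, 59.3 and 57.2 CPM at 4 h. The 4 h libraries were close to each other and below all 1 h libraries, and the log2 difference was -1.79 (SE 0.37, adjusted p = 0.0107). This call was lost without 1 h replicate 2 (adjusted p = 0.0509), the highest 1 h library, and without 4 h replicate 2 (0.0619) or 3 (0.0657). IRF8,IRF4 c78626-g1 measured 129, 208 and 136 CPM at 1 h and 53.8, 41.6 and 46.9 CPM at 4 h. RFX6 c40424-g1, named for a transcription factor of endocrine cells in vertebrates, measured 46.5, 59.1 and 43.5 CPM at 1 h and 17.9, 11.7 and 22.2 CPM at 4 h, a difference of -1.52 (SE 0.27, adjusted p = 0.00194). Both of these transcription factors were lower in each 4 h library than in any 1 h library.

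The gene c100695-g1, which carries the name of galectin-8, a lectin that binds sugars on damaged vesicles and cell surfaces, measured 233, 436 and 325 CPM at 1 h and 111, 108 and 148 CPM at 4 h, a log2 difference of -1.44 (SE 0.20, adjusted p = 0.000188). TRPA1, a channel for irritants, is the name of 3 tested genes, of which 2 fell and none rose. Over all genes tested 1.05% fell. TRPA1 c103918-g1 measured 79.6, 70.8 and 85.7 CPM at 1 h and 34.5, 22.2 and 31.7 CPM at 4 h, a difference of -1.42 (SE 0.27, adjusted p = 0.00449). The groups lay apart in each of these genes. TRPA1 c94660-g1 differed by -1.43 (SE 0.36, adjusted p = 0.027), a call lost without 1 h replicate 1 (adjusted p = 0.119) or 3 (0.0597) or 4 h replicate 2 (0.14) or 3 (0.129). SOX1 c104657-g4, a transcription factor of undifferentiated cells in vertebrates, fell by 1.12 (SE 0.17, adjusted p = 0.000413), and RTL1 c102495-g1, named for a gene derived from a retrotransposon, fell by 1.12 (SE 0.16, adjusted p = 0.00026).

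**Figure D3:**
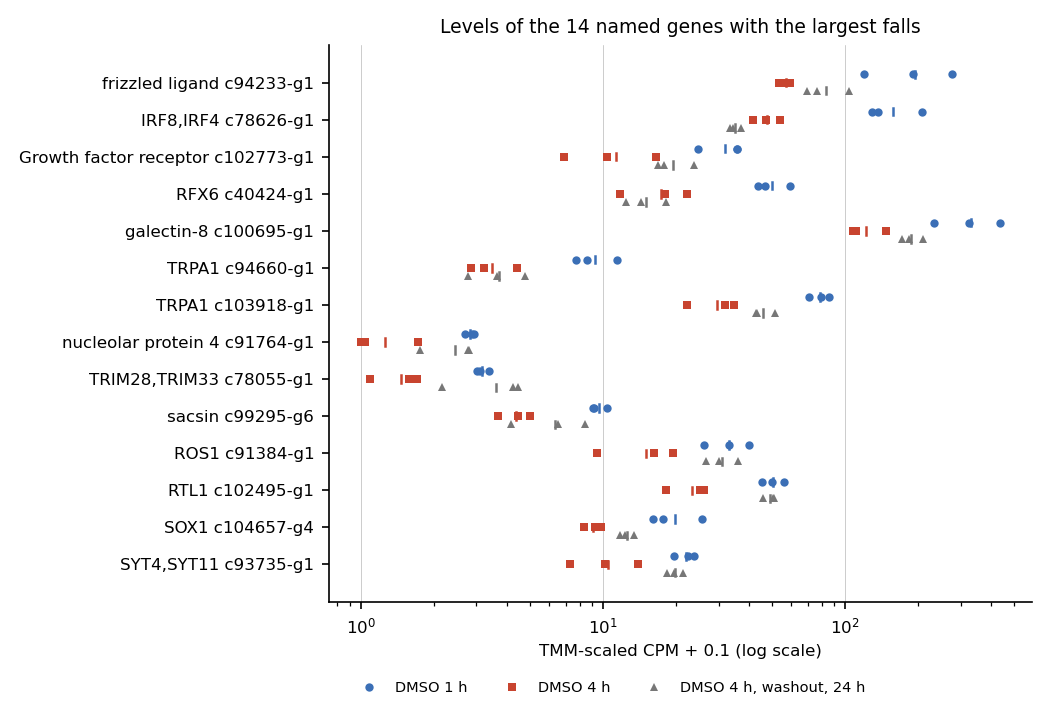
TMM-scaled CPM + 0.1 on a log axis in the 3 libraries each of DMSO 1 h, DMSO 4 h and DMSO with washout and 24 h of recovery, for the 14 named genes with the largest falls (points are libraries, ticks are means). The 4 h libraries lie to the left of the 1 h libraries in each of the 14, which was a condition of choosing them. The recovery libraries of IRF8,IRF4 and RFX6 stay on the 4 h side.

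A gene named growth factor receptor, c102773-g1, the only 1 of 6 tested genes of that name to be called, measured 24.5, 35.6 and 35.6 CPM at 1 h and 16.5, 10.3 and 6.78 CPM at 4 h, a log2 difference of -1.52 (SE 0.27, adjusted p = 0.00186). ROS1, a receptor tyrosine kinase, is the name of 4 tested genes, of which 2 fell, where 1.05% of all genes tested fell. ROS1 c91384-g1 measured 26, 33.1 and 39.9 CPM at 1 h and 16.2, 9.34 and 19.3 CPM at 4 h. Each of these had its lowest 1 h library above its highest 4 h library. The call of the second, ROS1 c95624-g1, at -1.03 (adjusted p = 0.0371), was lost without any 1 library but 1 h replicate 1 (0.0519 to 0.194). The 3 tested genes named MAPK7 or MKNK, kinases of MAP kinase signalling, fell by 0.77 to 0.89 on the log2 scale, calls lost without 4 h replicate 2 in each, without 1 h replicate 3 in both MAPK7 genes and without 4 h replicate 3 in MAPK7 c35631-g1 (adjusted p 0.0527 to 0.106). Among 32 immediate early and signal-responsive transcription factors 1 rose and 2 fell (9.38%, against 3.86% of all genes tested). Their median was -0.20 and 26 were negative. The 2 falls were 1 without 1 h replicate 2 or 3 or 4 h replicate 2 or 3, where the call of ATF6 c103705-g1 (-0.61, adjusted p = 0.0309) was lost (0.0958 to 0.18), and 4 with the replicate block. KLF9 c102282-g1 measured 179, 142 and 176 CPM at 1 h and 118, 80.9 and 90.1 CPM at 4 h, a difference of -0.78 (SE 0.16, adjusted p = 0.00627), and TRIB2,TRIB1 c103729-g1, a pseudokinase, rose by 1.05 (SE 0.20, adjusted p = 0.00294).

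Genes of DNA replication and the cell cycle leaned downward as a group. Of 116 tested members 0 rose and 7 fell (6.03% called, against 3.86% of all genes tested). A negative difference was found in 96, and the median was -0.20 against 0.01 over all genes tested. CDK4,CDK6 c93546-g1, the kinase that starts the cycle in vertebrates, measured 6.43, 6.49 and 5.62 CPM at 1 h and 3.06, 3.59 and 3.03 CPM at 4 h, a log2 difference of -0.94 (SE 0.21, adjusted p = 0.0111). TFDP1,TFDP3,TFDP2,TFDP2 c103113-g2, the partner of E2F factors, measured 39.5, 36.6 and 43 CPM at 1 h and 29.2, 20.6 and 24.2 CPM at 4 h, a difference of -0.69 (SE 0.16, adjusted p = 0.0136). These groups do not overlap. The CDK4,CDK6 call was lost without 1 h replicate 2 or 4 h replicate 3 (adjusted p 0.0517 to 0.0693), and the TFDP call without 1 h replicate 3, 4 h replicate 2 or 4 h replicate 3 (0.0638 to 0.096). The other 5 that fell were CCNA1,CCNA2 c101977-g1, CDC20 c96947-g1, CDC7 c103626-g5, WEE2,WEE1 c88507-g1 and KIF20A c102009-g2, from cyclin A of the dividing cell to a kinesin of its last step, by 0.64 to 0.86. The list's 7 falls were 12 without 4 h replicate 1, 0 without 4 h replicate 3, 1 without 4 h replicate 2 or 1 h replicate 3, 2 without 1 h replicate 2 and 3 without 1 h replicate 1.

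Basal body and intraflagellar transport genes had the same median, -0.20, with 68 of 95 tested members negative. Of the 95, 0 were higher and 3 lower (3.16% called, near the 3.86% of all genes tested). POC5 c96866-g1, a protein of centrioles, measured 15.5, 17.5 and 16.4 CPM at 1 h and 10.8, 7.55 and 8.89 CPM at 4 h, a log2 difference of -0.86 (SE 0.17, adjusted p = 0.00485). The list's 3 falls were 6 without 4 h replicate 1, 2 without 1 h replicate 1 and 1 without each of the other 4 libraries. In the endoplasmic reticulum list OS9 c100614-g1, a lectin that hands misfolded proteins to synoviolin in vertebrates, fell by 0.68 (SE 0.13, adjusted p = 0.0038). TFEC,MITF,TFE3,TFEB c103518-g1, named for regulators of lysosome genes, fell by 0.67 (SE 0.16, adjusted p = 0.0219), 1 of 2 falls among 156 tested lysosome and phagocytosis genes. The TFEC call was lost without any 1 library but 1 h replicate 2 (adjusted p 0.0572 to 0.132). The list's 2 falls were 0 without 1 h replicate 3, 2 without 1 h replicate 2 and 1 without each of the other 4 libraries, and 2 members were higher without 4 h replicate 1.

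Many gene groups that answer to stress in other settings had no called member. By the edgeR test 0 of 73 heat shock and chaperone genes, 0 of 60 autophagy genes, 0 of 9 hypoxia genes and 0 of 11 clock and light-input genes were called. The same held for 86 cytosolic and 49 mitochondrial ribosomal proteins, 117 ribosome assembly genes, 60 respiratory chain genes and 40 genes of glycolysis. Their medians ran from -0.20 in the clock genes to 0.09 in ribosome assembly. Of 578 tested genes in all 12 lists with no call, 36 had an unadjusted p under 0.05, 17 of them in autophagy, DESeq2 called 2 and limma-voom 0. Over all genes tested 3.86% were called, so lists as short as those of hypoxia and clock genes can hold 0 calls at that share. A count of 0 does not show that these genes were equal. The summed level of the clock and light-input genes did not overlap between the times, at 983 to 1500 CPM at 1 h and 563 to 822 CPM at 4 h, with 8 of the 11 negative, and hypoxia genes summed to 557 to 593 and 518 to 555 CPM. In autophagy 1 gene was higher without 1 h replicate 2 or 4 h replicate 1, and 2 were lower without 4 h replicate 1. With the replicate block 1 autophagy gene was higher and 3 were lower, and 1 respiratory chain gene was higher. With the block in the 6 DMSO libraries alone, a fit chosen after seeing the data, 4 clock genes were lower and 5 autophagy genes higher.

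**Figure D4:**
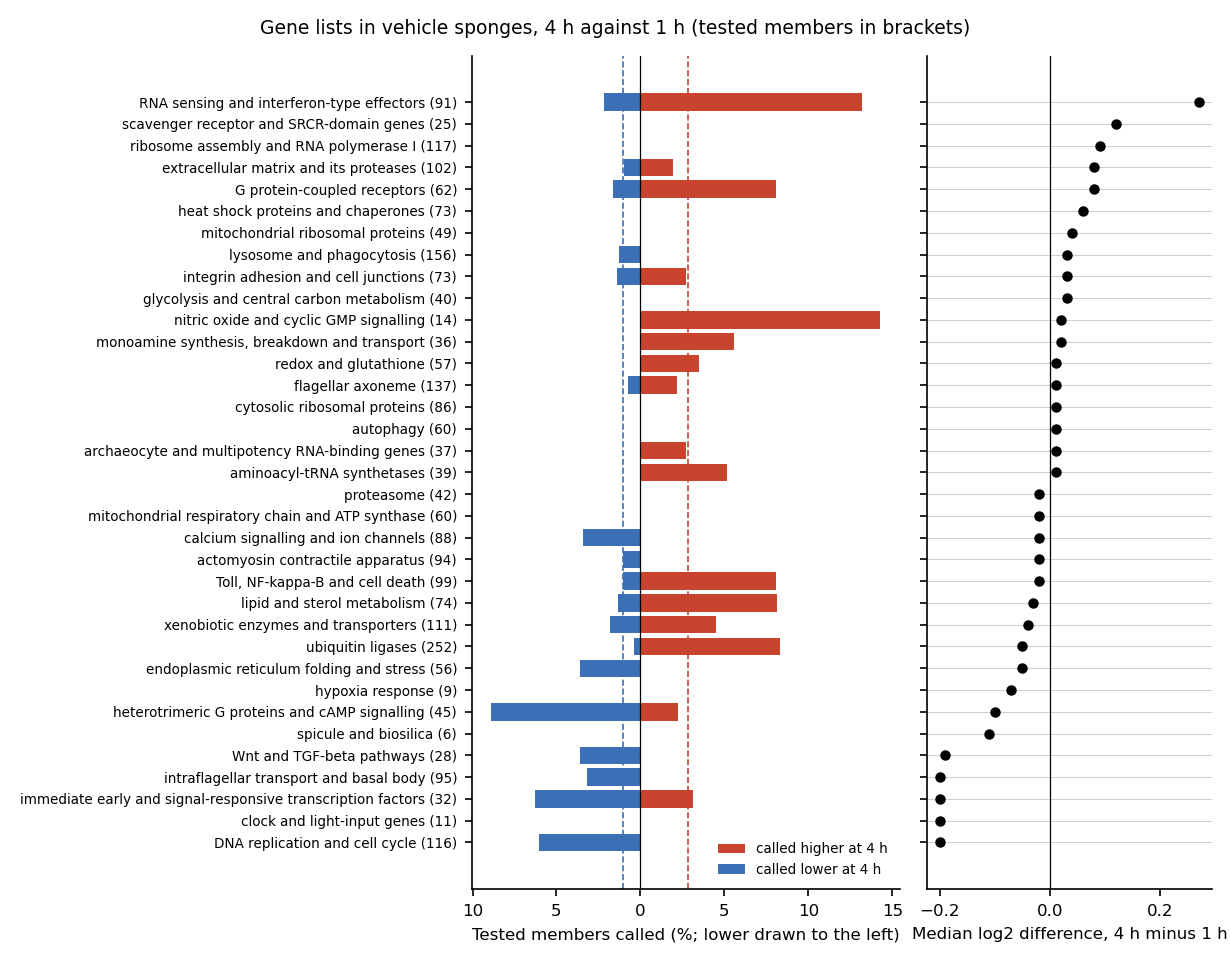
Share of the tested members of 35 of the 36 gene lists called higher (right) or lower (left) at 4 h, with dashed lines at the shares over all genes tested, 2.81% and 1.05%, and beside it each list's median log2 difference. RNA sensing has the highest median, 0.27, and DNA replication and cell cycle is among the lowest at -0.20.

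The DMSO libraries taken after washout and 24 h show where these levels went next, and no test was run because such a test would share the 4 h libraries. Of the 678 genes called higher, 553 had every recovery library below every 4 h library, as against 3232 of all 24125 genes tested. In 561 of the 678 the recovery mean was nearer to the 1 h mean than to the 4 h mean on the log2 scale. Of the 253 called lower, 220 had every recovery library above every 4 h library and 217 were nearer to 1 h. Counts over all genes tested were not made for recovery above 4 h or for being nearer to 1 h. All these genes were chosen by their 4 h levels, so part of such a return follows from the choice. The median log2 difference of recovery from 1 h, with 0.5 CPM added to each mean, was 0.25 for the genes called higher and -0.07 for those called lower. TRIM2 c87469-g1 measured 34.8, 18.4 and 37.9 CPM in recovery, above its 1 h levels and far below its 4 h levels. RNF213 c107702-g1 measured 13.4, 9.14 and 11.6 CPM, and IDO1,IDO2 c80379-g2 measured 12.3, 8.49 and 15.2 CPM, within its 1 h range.

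Some genes did not return to their 1 h levels. IRF8,IRF4 c78626-g1 measured 33.4, 34.2 and 37.2 CPM in recovery, below each 4 h library, and RFX6 c40424-g1 measured 18.1, 12.3 and 14.3 CPM, within the 4 h range. TARS c103470-g2 measured 68, 66.9 and 107 CPM in recovery against 44.5, 94.4 and 97.7 CPM at 4 h. A gene named ubiquitin carboxyl-terminal hydrolase, c98977-g1, measured 13.2, 8.33 and 11.1 CPM in recovery against 6.38, 10.4 and 11.6 CPM at 4 h and 3.35, 3.67 and 4.47 CPM at 1 h. These 4 genes were singled out after their values were seen.

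The same interval in tryptamine, on libraries that share none with the DMSO comparison, is the most similar comparison of the study. There 65 genes were called higher and 19 lower (0.269% and 0.0788%, together 0.348% of 24125), with 3014 at an unadjusted p under 0.05 against 3611 in DMSO. The direction was mostly shared. Of the genes called higher in DMSO, 642 (94.7%) had a positive difference in tryptamine, as against 48.4% of all genes tested, and of those called lower 246 (97.2%) had a negative one, as against 51.6%. The sizes were smaller, with medians of 0.77 and -0.41 where DMSO had 1.75 and -0.77, and the genes were chosen by their DMSO calls. Called in both were 46 genes higher, which is most of the 65, and 13 genes lower. The count in tryptamine rests on few libraries, since it was 656 and 190 without tryptamine 4 h replicate 1, 3 and 1 without its replicate 2, and 1 and 0 without its replicate 3 or without any 1 of the tryptamine 1 h libraries. It moved by more than 1.5 times with DMSO libraries too, to 32 and 8 without DMSO 1 h replicate 1, 33 and 9 without DMSO 1 h replicate 3, 134 and 29 without DMSO 4 h replicate 1, and 12 falls without DMSO 1 h replicate 2.

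The difference between the 2 intervals was tested as an interaction, and edgeR called 0 genes (0%). Its smallest adjusted p was 0.0527, and 994 genes passed 0.05 unadjusted. The limma-voom test also called 0, with a smallest adjusted p of 0.206 and 1016 unadjusted, while DESeq2 called 82 genes with a higher difference in DMSO than in tryptamine and 7 with a lower one, 1054 unadjusted. Without DMSO 4 h replicate 1 edgeR called 90 genes, all with a higher difference in DMSO, and 1 without tryptamine 4 h replicate 3. With the replicate block 4 genes were called. The gene with the smallest p was RSAD2 c4918-g1, at 0.521, 0.694 and 1.19 CPM in tryptamine at 1 h and 0.673, 1.3 and 0.906 CPM at 4 h. These groups overlap, where those in DMSO did not, and the interaction was 3.62 on the log2 scale (SE 0.55, adjusted p = 0.0527, and 0.0261 with the replicate block). CUL9 c80372-g1 had an interaction of 2.57 (SE 0.40, adjusted p = 0.0527, and 0.0456 with the block).

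Among the 66 genes named by rule, 64 had the same direction in both intervals. An unadjusted edgeR interaction p under 0.05 was found in 30, as against 994 of all 24125 genes tested. The 66 were chosen by their DMSO calls, and the interaction contains the DMSO difference. Part of that count of 30 therefore follows from the choice. TRIM2 c87469-g1 measured 3.05, 6.94 and 5.04 CPM in tryptamine at 1 h and 17.9, 28.4 and 19.7 CPM at 4 h, so its libraries stood apart there too, and its tryptamine difference was 2.13 (SE 0.51, adjusted p = 0.0849). GPR126 c99965-g1 differed by nearly the same amount in both, 4.85 (SE 1.16, adjusted p = 0.0849) in tryptamine. GUCY1B3 c102529-g2 rose in tryptamine by 0.93 (SE 0.18, adjusted p = 0.034), PLA2G6 c104830-g2 by 1.08 (SE 0.21, adjusted p = 0.0333), and TRIB2,TRIB1 c103729-g1 by 1.04 (SE 0.20, adjusted p = 0.0333). With LLGL1,LLGL2 c104143-g2, ABCC10 c89623-g1 and the growth factor receptor c102773-g1 these were the 6 of the 66 called in tryptamine.

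**Figure D5:**
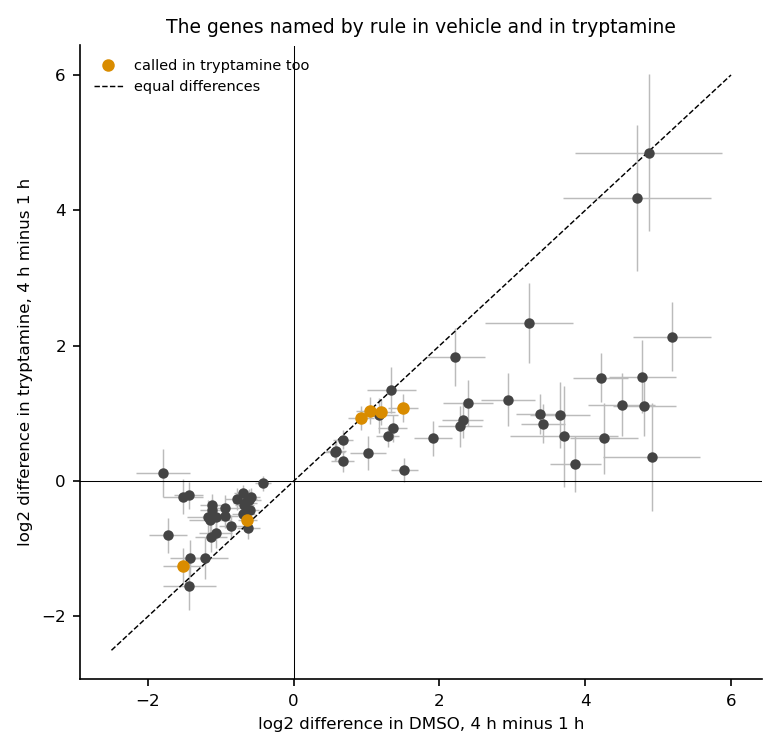
Log2 difference from 1 h to 4 h in DMSO (x axis) and in tryptamine (y axis) for 65 of the 66 genes named by rule, with bars of 1 SE and a dashed line of equal differences. Most points on the right lie below the line, RSAD2 lies near 0 in tryptamine, and the 6 coloured points were called in both. The genes were chosen by their DMSO calls, so part of the distance below the line follows from the choice. The edgeR interaction test called 0 genes.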

How the data were processed

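The deposited values are unnormalised counts, read pairs assigned to each gene in 18 libraries. Per the file headers featureCounts 2.1.1 made them, with no strand setting, both ends required and reads mapping to several places left out. Per the submitters' processing notes reads were aligned with STAR, version not given in the sources used here. Genes are those of an assembled transcriptome, and their lengths are the authors' deposited sums over isoforms, so no coordinates are given.

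Of 39562 genes 4925 had no count, 9785 a usable name and 24125 passed filterByExpr by group (9354 named). One edgeR 4.0.16 quasi-likelihood model (TMM, robust, R 4.3.3, limma 3.58.1) was fitted to the 18 libraries, with 12 residual degrees of freedom and a biological coefficient of variation of 21%. Tests were two-sided, and Benjamini-Hochberg adjustment ran over the 24125 genes. Levels are TMM-scaled CPM, and log2 differences are edgeR estimates. The test was tried first on simulated data.

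Genes were named if called, with a mean of at least 20 counts, non-overlapping groups and a name: the 14 largest rises, the 14 largest falls and 2 members of smallest p from each of 36 lists (66 genes). Members of 33 families by name were added after their values were seen, as were other called list members mentioned. The comparison and the lists were chosen with earlier results of these data known. Same-numbered DMSO libraries correlated in their deviations by 0.179, 0.196 and 0.273, each best with its own number, so numbers were taken to pair libraries, a hint from the data and not the labels. Replicate counts differed by 11.5 to 20.2 in chi-square per degree of freedom, so no library was a copy. The alternatives, DESeq2 1.42.0 among them, are given in the closing section. 1 gene named by the rule and 1 list that holds it are not reported here.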

Additional observations from a re-analysis of the deposited data

How the results depend on the processing

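Of 66 genes named by rule 28 kept their call under each of 26 alternatives, 38 lost it under at least 1 and 0 reversed. The counts for DMSO 4 h against 1 h (678 higher, 253 lower) moved by more than 1.5 times to 136 lower with the 6 libraries alone, 91 lower against a fold of 1.2, and 325 higher and 19 lower against a fold of 1.5. Without both DMSO libraries of number 2 they were 318 and 24. Leaving out 1 library gave 384 to 861 higher and 61 to 329 lower. With numbers taken to pair libraries, the replicate block gave 928 higher and 451 lower in DMSO, 270 and 133 in tryptamine and 4 for the interaction; in the 6 DMSO libraries alone, a fit chosen after seeing the data, it gave 1130 higher and 319 lower. Tryptamine counts (65 and 19) were 499 and 128 by DESeq2, 1 and 0 by limma-voom, 30 and 1 with 12 libraries, 11 and 0 against a fold of 1.2, 1 and 0 against 1.5, 12 lower with no filter, 115 higher with non-robust dispersions and 11 lower without both DMSO libraries of number 2. Leaving out 1 library gave 1 to 656 and 0 to 190, the runs without a tryptamine library being chosen after seeing the data. The interaction (0) was 82 and 7 by DESeq2, 11 higher with no filter, 3 with non-robust dispersions, 4 with the length trend removed and 0 to 90 without 1 library. The fold tests ask for more than a difference from 0; for the others the cause was not tested. Differences of low genes are limited by depth: 151 of the genes called higher were under 1 CPM at 1 h.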

Other observations

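Other named families are given here as values only, as chosen after their values were seen. CYP46A1, named for the enzyme that hydroxylates cholesterol in the vertebrate brain, had 4 genes called higher, c94461-g4 by 2.27 (SE 0.51, edgeR adjusted p = 0.0124), c94461-g2 by 1.81, c94461-g1 by 1.63 and c104274-g1 by 1.10 (SE 0.23, adjusted p = 0.00866). The calls of c94461-g4 and c94461-g2 were lost without 1 h replicate 1 or 2 or 4 h replicate 2 or 3 (adjusted p 0.0514 to 0.146), that of c94461-g1 without any 1 library but 4 h replicate 1 (0.0549 to 0.128) and that of c104274-g1 without 1 h replicate 3 or 4 h replicate 2 (0.0592 to 0.0644). Genes named for retrotransposons or reverse transcriptase rose in 5 of 102 tested cases and fell in 1, where 2.81% of all genes tested rose and 1.05% fell. Their median was 0.24, and 77 of the 102 were positive. The 5 rises were 1 without 1 h replicate 3, 4 h replicate 2 or 4 h replicate 3, 2 without 1 h replicate 1 and 3 without 1 h replicate 2. NUP98, a protein of the nuclear pore, is the name of 2 tested genes and both rose, c103700-g1 by 1.60 (SE 0.24, adjusted p = 0.000403) from 25.8, 19.6 and 25.2 CPM to 45.7, 88.6 and 78.6 CPM. TTC28 c101012-g1, named for a repeat protein of the dividing cell, measured 50.7, 60.5 and 63.9 CPM at 1 h and 170, 295 and 343 CPM at 4 h, a log2 difference of 2.21 (SE 0.21, adjusted p = 7.09e-06), 1 of 9 tested genes of that name to be called.

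Frizzled receptors, their ligands and their antagonists moved unequally. FRZB c98629-g1, named for a secreted antagonist of Wnt, measured 63, 85.7 and 61.9 CPM at 1 h and 154, 190 and 217 CPM at 4 h, a difference of 1.41 (SE 0.33, adjusted p = 0.0205). GPRFZ2 c94416-g1, named for a frizzled receptor, measured 123, 137 and 143 CPM at 1 h, 76.9, 69.8 and 76.8 CPM at 4 h and 66.4, 52 and 53.6 CPM in recovery, and its difference was -0.85 (SE 0.21, adjusted p = 0.0218). The FRZB call was lost without 1 h replicate 1 or 3 or 4 h replicate 2 or 3 (adjusted p 0.081 to 0.106), and that of GPRFZ2 without 1 h replicate 2 or 3 or 4 h replicate 2 or 3 (0.0699 to 0.103). KLF5 c96134-g1, a transcription factor of epithelia, had means of 345 CPM at 1 h and 100 CPM at 4 h, a log2 difference of -1.79 that did not pass (SE 0.49, adjusted p = 0.0609).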
